A study of Homo sapiens with 2 samples.

Results

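SNU-449 cells, a line from a human hepatocellular carcinoma, were treated for 24 h with ezetimibe, which lowers cholesterol by inhibiting sterol uptake through NPC1L1, and their RNA was sequenced beside that of control cells. There was 1 ezetimibe library and 1 control library, with no other treatment or genotype named for either. All statements describe these 2 libraries, and no difference has a replicate check. The deposited table names, by KEGG pathway, genes that the authors called changed and the direction of each. It gives no levels or fold changes, so no value per library can be shown. Described here are 46 genes of the KEGG pathways for mTOR, FoxO, AMPK and insulin signalling, out of 2238 genes listed as changed under any pathway.

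The 46 genes were found by joining the changed genes of the 4 pathways, 142 in all, and taking out 96 that also lie in 16 other KEGG pathways (such as autophagy, MAPK, Wnt and the cell cycle), encode proton pump subunits, or encode the leading phosphoinositide 3-kinase, AKT and MAP kinase kinase genes. The choice rests on the authors' call of change, so being listed is no finding about these genes, and their directions come from the same contrast and are given as a description with no test. Of the 8877 pathway genes that the authors used as background, 25.2% were listed as changed, 8.20% upward and 17.0% downward. That up means higher after ezetimibe follows from the name of the comparison alone, since the table has no level to check it with. A gene that is not named may have been unchanged by the authors' criteria or not expressed. The label of a liver cancer line could not be checked without levels. Of 9 hepatocyte markers 4 were listed, of 5 cholangiocyte markers 2 and of 4 fibroblast markers 3, all as down. The 3 immune markers had 1 up and 1 down, and none of 3 endothelial markers was listed.

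These pathways join nutrient supply to growth. Insulin, acting through its receptor and adaptor proteins, activates AKT, which stimulates the kinase complex mTORC1 and keeps FoxO transcription factors out of the nucleus. Amino acids activate mTORC1 at the lysosome through the Rag GTPases, and mTORC1 raises protein synthesis by releasing the cap-binding protein EIF4E from its inhibitors. AMPK senses low energy, slows mTORC1 and lipid synthesis, and favours fuel use. In liver, insulin signalling also drives glycogen storage, and FoxO and CREB factors drive glucose production.

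The 46 genes were split almost evenly by direction after ezetimibe, with 22 listed as up and 24 as down, whereas 728 of all listed genes were up and 1510 down. The share listed as up was 47.8% among the 46 genes (exact Clopper-Pearson 95% interval 32.9 to 63.1) and 32.5% among all listed genes (30.6 to 34.5). Among the 96 genes taken out, 29 were up and 67 down. The intervals count genes as if they were independent, and leave out the spread between cultures. Several complexes and gene families held genes of both directions. These pairs, named below by role, were picked out after the directions were seen, and whether partners differ more often than other genes was not tested.

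**Figure D1:**
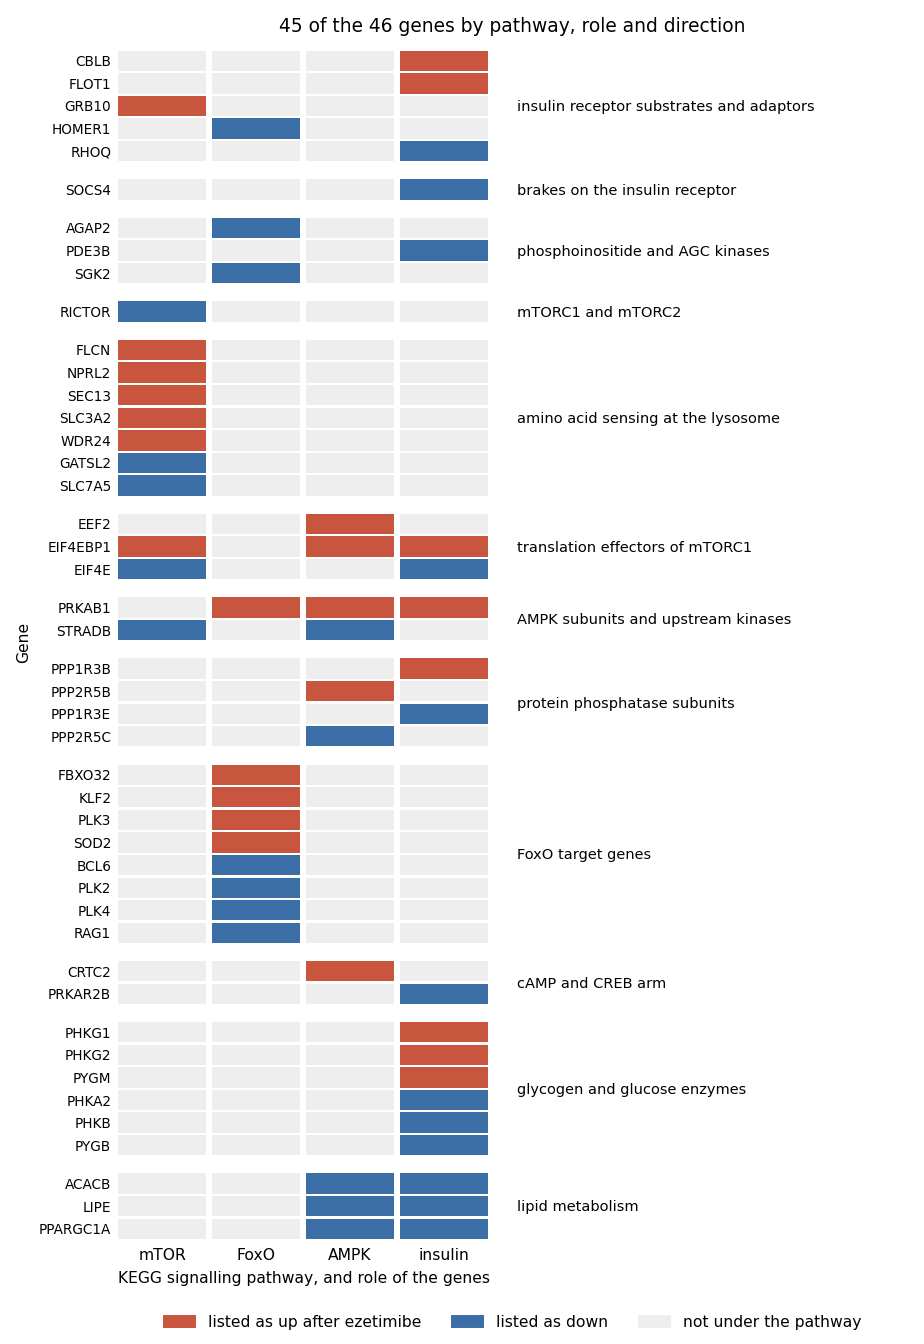
Each row is a gene, 45 of the 46 being drawn, and each column is a KEGG pathway, with a filled tile where the gene lies under that pathway. Colour gives the direction listed after ezetimibe, and the genes are grouped by role. Most roles hold genes of both directions, and 5 of the 7 genes of amino acid sensing are up.

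Promoter sequences from RefSeq on build GRCh38.p14 were found for 34 of the 46 genes, 15 listed as up and 19 as down, as windows of 250 bases before to 50 bases after each start site. Among the genes with no window used were CRTC2, EIF4EBP1, FBXO32, GATSL2, PDE3B, PPP1R3B, PPP1R3E, PYGM, RHOQ, SGK2 and WDR24. The windows were searched on both strands for 3 motifs. CACGTG is the E-box bound by MYC, USF and the lysosomal regulator TFEB and reads the same on both strands. It was in a window of 0 of 15 genes listed as up and 4 of 19 genes listed as down. Over all listed genes the E-box was in 16.0% of those listed as up and 12.5% of those listed as down, the opposite order, and it was in 8.77% of all genes of the promoter table. The 4 promoters that hold it belong to the cap-binding protein EIF4E, the amino acid transporter SLC7A5, the coactivator PPARGC1A and the kinase subunit PRKAR2B. Their 250 bases before the start site are shown with the E-box in capitals, followed by the window of SLC3A2, the partner chain of SLC7A5, which was listed as up and has no E-box in any of its 3 windows. Of the 2 windows for PPARGC1A, the one shown belongs to a start site outside the span that GENCODE release 29 gives this gene. The bases run 5′ to 3′ on the strand of the gene.
EIF4E (chr4:98929134-98929383, minus strand): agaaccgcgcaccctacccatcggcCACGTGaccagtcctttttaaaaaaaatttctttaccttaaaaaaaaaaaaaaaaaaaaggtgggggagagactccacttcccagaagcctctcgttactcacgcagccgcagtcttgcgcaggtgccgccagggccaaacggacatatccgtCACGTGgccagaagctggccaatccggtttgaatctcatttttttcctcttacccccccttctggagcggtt
SLC7A5 (chr16:87869508-87869757, minus strand): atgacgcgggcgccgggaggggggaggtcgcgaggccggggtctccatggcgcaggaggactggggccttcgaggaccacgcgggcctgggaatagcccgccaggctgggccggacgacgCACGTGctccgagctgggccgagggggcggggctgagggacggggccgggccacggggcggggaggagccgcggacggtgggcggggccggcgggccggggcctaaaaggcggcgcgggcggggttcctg
PPARGC1A (chr4:24472906-24473155, minus strand): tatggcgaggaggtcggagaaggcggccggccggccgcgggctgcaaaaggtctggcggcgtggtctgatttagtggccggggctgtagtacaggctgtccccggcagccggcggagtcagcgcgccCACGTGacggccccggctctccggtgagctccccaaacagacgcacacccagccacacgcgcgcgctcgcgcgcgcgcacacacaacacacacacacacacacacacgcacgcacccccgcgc
PRKAR2B (chr7:107044455-107044704, plus strand): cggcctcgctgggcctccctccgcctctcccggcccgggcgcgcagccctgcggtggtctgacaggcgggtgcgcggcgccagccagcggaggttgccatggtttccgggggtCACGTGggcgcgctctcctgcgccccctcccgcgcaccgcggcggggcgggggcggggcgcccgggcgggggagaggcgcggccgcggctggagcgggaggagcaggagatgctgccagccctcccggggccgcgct
SLC3A2 (chr11:62881449-62881698, plus strand): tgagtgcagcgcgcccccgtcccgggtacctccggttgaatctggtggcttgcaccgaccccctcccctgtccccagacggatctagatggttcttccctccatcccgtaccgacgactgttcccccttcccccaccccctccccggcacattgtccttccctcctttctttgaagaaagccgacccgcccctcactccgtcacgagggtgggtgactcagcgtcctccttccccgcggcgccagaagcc

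In EIF4E the E-boxes begin 225 and 72 bases before the start site, and those of SLC7A5, PPARGC1A and PRKAR2B begin 130, 123 and 137 bases before it. The window of EIF4E is 50.4% GC, against 79.6% for SLC7A5 and 65.6% for SLC3A2. GTAAACA, the core bound by FoxO factors, was in a window of 0 of 15 genes listed as up and 1 of 19 listed as down, the phosphatase subunit PPP2R5C, and in 4.19% of all genes of the table. TGATGCA, a core of the response element bound by ATF4, was in 0 of 15 and 1 of 19, the repressor BCL6, and in 3.24% of all genes. None of the 3 FoxO target genes listed as up that had a window, KLF2, PLK3 and SOD2, held the FoxO core. A match is a run of letters in a short window, and these counts say nothing of binding.

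The role of receptor substrates and adaptors held 5 of the 46 genes, of which 3 were listed as up and 2 as down. CBLB, FLOT1 and RHOQ are under insulin signaling, GRB10 under mTOR signaling and HOMER1 under FoxO signaling. Those listed as up were GRB10, an adaptor that restrains the insulin receptor and is stabilised by mTORC1, the ubiquitin ligase CBLB, and FLOT1, a lipid raft protein. RHOQ, the small GTPase TC10 that acts in glucose transporter delivery, and HOMER1, a scaffold of glutamate receptors, were listed as down. SOCS4, a suppressor of receptor signalling, was also listed as down. In its own role, named brakes on the insulin receptor, 1 of 8 genes was up, TRIB3, and 3 were down, SOCS4, SOCS3 and PTPN11. GRB10, which also restrains the receptor, is counted among the adaptors, so this count depends on how genes were sorted into roles. In the wider role list of 25 adaptors, 4 were up and 5 down, with the receptor substrate IRS1 among those down. Of 21 ligands and receptors 3 were listed, the growth factor receptor IGF1R, the leptin receptor LEPR and the adrenergic receptor ADRA1B, all as down.

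Downstream of the receptor, the mixed role named phosphoinositide and AGC kinases held 3 of the 46 genes, all listed as down. They were AGAP2, a GTPase that enhances phosphoinositide 3-kinase, SGK2, a kinase related to AKT, and PDE3B, the phosphodiesterase through which insulin lowers cAMP. In the list of 23 genes of this role, to which AGAP2 was added later and is not counted, 7 were listed as down and 1 as up, the atypical kinase PRKCZ. RICTOR, the defining subunit of mTORC2, was listed as down, while RPTOR, the defining subunit of mTORC1, was listed as up and is not one of the 46. The mTOR inhibitor DEPTOR was listed as down. Of the stress-induced inhibitors of mTORC1, DDIT4 and SESN2 were up and SESN1 and SESN3 down. None of these 4 is among the 46.

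Amino acid sensing at the lysosome was the role with the most genes listed as up among the 46, with 5 up and 2 down. WDR24 and SEC13 are subunits of GATOR2, which activates mTORC1, whereas NPRL2 belongs to GATOR1, which inhibits it, and all 3 were listed as up. FLCN, which acts on the Rag GTPases RRAGC and RRAGD, was up. Outside the 46, both of these GTPases were also up and RRAGB was down. SLC3A2 (ENSG00000168003, chromosome 11, 62856102 to 62888875) and SLC7A5 (ENSG00000103257, chromosome 16, 87830023 to 87869488) form a heterodimer that imports leucine, and the heavy chain SLC3A2 was up while the transporting chain SLC7A5 was down. GATSL2, now named CASTOR2, a relative of the arginine sensor CASTOR1, was listed as down. It is known to have closely related copies, and whether they share its reads was not tested. Over the role list of 30 genes, 7 were up and 3 down.

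Of the targets of mTORC1 in translation, the inhibitor and its target had opposite directions. EIF4EBP1 (ENSG00000187840, chromosome 8, 38030341 to 38060365), which binds and blocks EIF4E, was listed as up under 3 of the 4 pathways. EIF4E itself (ENSG00000151247, chromosome 4, 98871684 to 98930637) was listed as down. EEF2, the elongation factor that AMPK signalling inhibits through a kinase, was up. The S6 kinase RPS6KB1, outside the 46, was listed as down. The role list of 17 genes is wider than targets of mTORC1. It also holds ELK1 and RPS6KA2, listed as up, and RPS6KA6, listed as down. Over that list 4 were up and 3 down.

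AMPK is built of a catalytic alpha, a scaffold beta and a sensor gamma subunit. PRKAB1, the beta 1 subunit (ENSG00000111725, chromosome 12, 119667753 to 119681630), was listed as up, and it is the other gene under 3 of the 4 pathways. Both catalytic subunit genes, PRKAA1 and PRKAA2, were listed as down and are not among the 46. STRADB, a pseudokinase that binds the AMPK-activating kinase STK11, was also down. Of 15 genes of this role, 1 was up and 3 were down.

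Regulatory subunits of protein phosphatases were split within families. PPP2R5B and PPP2R5C are B56 subunits of protein phosphatase 2A, of which PPP2R5B was listed as up and PPP2R5C as down. PPP1R3B and PPP1R3E target protein phosphatase 1 to glycogen, and PPP1R3B, the main such subunit in liver, was up while PPP1R3E was down. Over the role list of 25 genes, 2 were up and 5 down, with the catalytic subunits PPP1CB and PPP1CC among those down.

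The enzymes of glycogen breakdown had the same kind of split. Phosphorylase kinase, which activates glycogen phosphorylase, has a catalytic gamma subunit and regulatory subunits that include alpha and beta. Both gamma genes, PHKG1 and PHKG2, were listed as up, and PHKA2, the liver alpha subunit, and PHKB, the beta subunit, as down. Of the phosphorylases, the muscle form PYGM was up and the brain form PYGB down. The role list of 39 glycogen and glucose genes had 7 up and 7 down, with CALM2, CALM3 and CALML4 among those down. It held another such pair, GSK3A as up and GSK3B as down, the kinases that inhibit glycogen synthase.

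**Figure D2:**
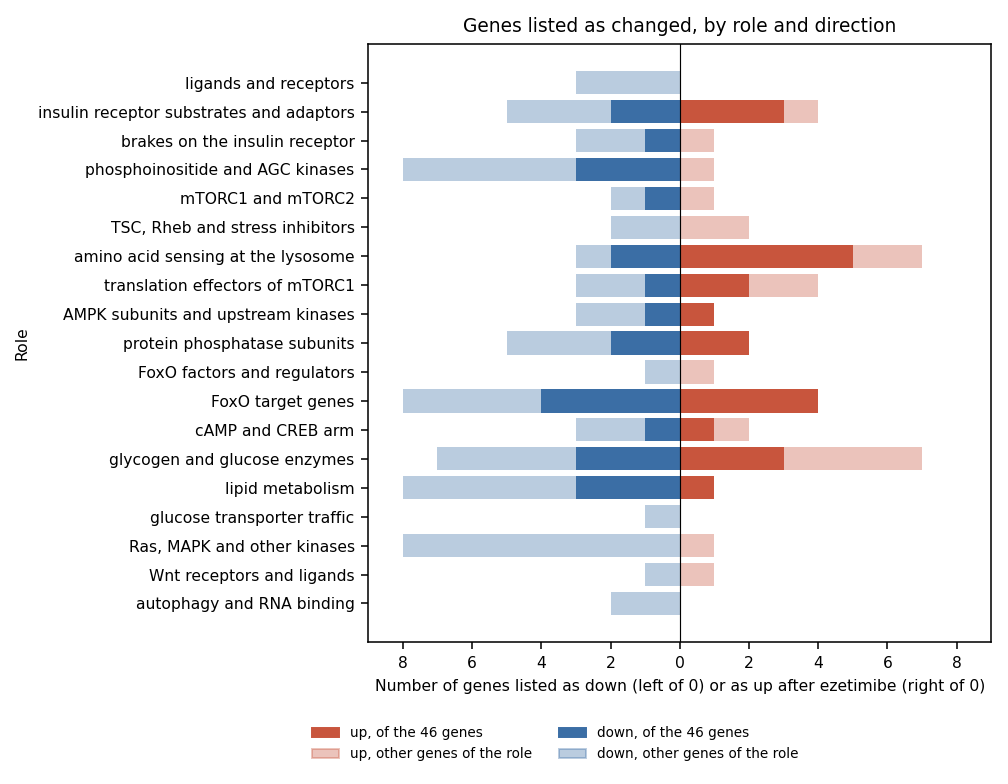
Bars count genes listed as changed in each role, up after ezetimibe to the right of 0 and down to the left. Solid bars are the 46 genes and pale bars the other listed genes of the role. Amino acid sensing reaches 7 up and 3 down, and lipid metabolism 8 down.

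The FoxO factors themselves were not among the listed genes of their role, in which STK4 was up and SKP2 down of 16 genes. The 8 FoxO target genes among the 46 had 4 up and 4 down. Listed as up were FBXO32, the ubiquitin ligase atrogin-1 of muscle wasting, KLF2, a transcription factor of quiescence, the mitochondrial superoxide dismutase SOD2, and the stress-responsive polo-like kinase PLK3. The repressor BCL6, the recombinase gene RAG1, PLK2 and the centriole duplication kinase PLK4 were listed as down. The 3 polo-like kinases among the 46 were therefore split, and PLK1, outside them, was also down. Over the role list of 24 targets, 4 were up and 8 down.

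Of the arm that runs through cAMP, CRTC2, the coactivator of CREB in glucose production, was listed as up and PRKAR2B, a regulatory subunit of protein kinase A, as down. In lipid metabolism 3 of 4 genes were listed as down. They were ACACB, the acetyl-CoA carboxylase that restrains fatty acid oxidation, the hormone-sensitive lipase LIPE, and PPARGC1A, a coactivator of mitochondrial and glucose production genes. Each of these 3 lies under both AMPK and insulin signalling. Of 19 genes in the role list, 8 were down.

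Over all roles, the list of 343 genes had 115 listed as changed, 40 as up and 75 as down. That is 33.5% of the list, beside 25.2% of the background. The list was drawn from the same pathways and with earlier results of these data known, so the comparison is a description. Its listed genes that are not among the 46 had 18 up and 52 down.

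By pathway, the authors' deposited table lists 61 of 176 genes for mTOR signaling (34.7%, authors' p = 0.0154, q = 0.0787) and 53 of 140 for FoxO signaling (37.9%, p = 0.00446, q = 0.0317). In the authors' deposited table insulin signaling has 55 of 153 genes (35.9%, p = 0.0107, q = 0.0622) and AMPK signaling 33 of 129 (25.6%, p = 0.844). These p-values are the authors' and take genes as the unit. Of the 46 genes, 12 were under mTOR signaling with 7 up and 5 down, and 12 under FoxO signaling with 5 up and 7 down. AMPK signaling held 11 of them, 6 up and 5 down, and insulin signaling 20, 8 up and 12 down. All listed genes of each pathway, with those taken out by the rule, were mostly down. They had 22 up and 39 down (36.1% up) for mTOR and 16 up and 37 down (30.2%) for FoxO signaling. AMPK signaling had 10 up and 23 down (30.3%), and insulin signaling 18 up and 37 down (32.7%). Of the 46 genes, 39 were under 1 of the 4 pathways, 20 up and 19 down. The 5 genes under 2 pathways, STRADB, EIF4E, ACACB, LIPE and PPARGC1A, were all listed as down, and the 2 under 3 pathways, PRKAB1 and EIF4EBP1, as up. Outside the 4 pathways, the 46 genes were most often found under Glucagon signaling, with 5 up and 6 down, and Insulin resistance, with 4 up and 4 down.

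**Figure D3:**
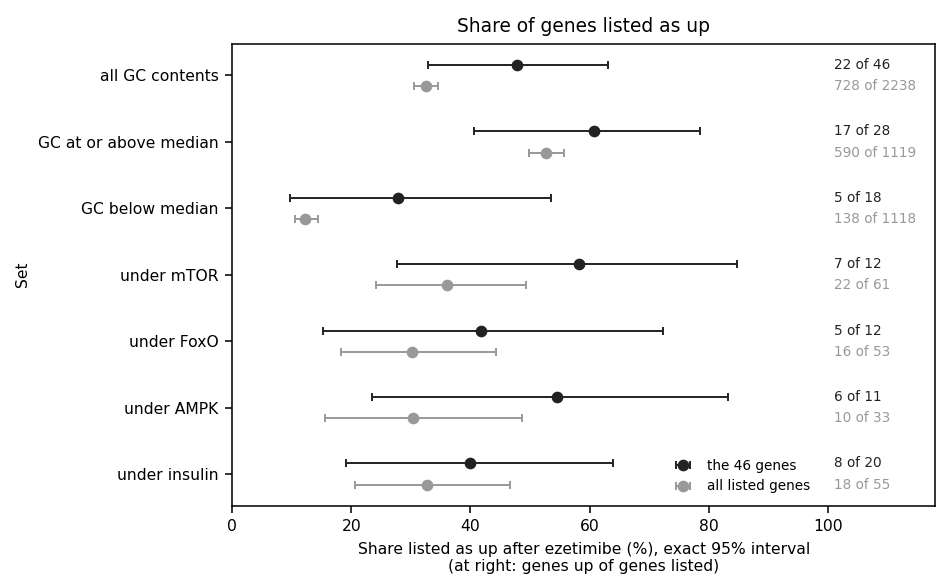
Points give the share of genes listed as up after ezetimibe in percent, for the 46 genes (black) and all listed genes (grey), and bars are exact 95% intervals that cover counting error only. The black point lies to the right of the grey one in each pair, with wide intervals, at 47.8% and 32.5% over all GC contents.

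Direction went with the base composition of the transcript in the 46 genes as it did over all listed genes. The longest transcript had a median GC content of 56.6% in the genes listed as up and of 44.2% in the genes listed as down, beside 55.2% and 43.6% over all listed genes. The median length of that transcript was 3181 bases in the up genes and 4655 bases in the down genes, and the median gene span was 15172 bases in the up genes and 59468 bases in the down genes. Over all listed genes the lengths were 2860 and 4401 bases and the spans 17892 and 52751 bases, for up and down genes in turn. Of the 10 genes with the lowest GC content, SOCS4 the lowest at 35.3%, 2 were up and 8 down, and of the 10 with the highest, 6 were up and 4 down. At or above 47.0% GC, the median of all listed genes, 17 of 28 of the 46 genes were up (60.7%, 40.6 to 78.5), and 52.7% of all listed genes. Below it 5 of 18 were up (27.8%, 9.69 to 53.5), and 12.3% of all listed genes. The part of base composition in these directions was not tested.

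**Figure D4:**
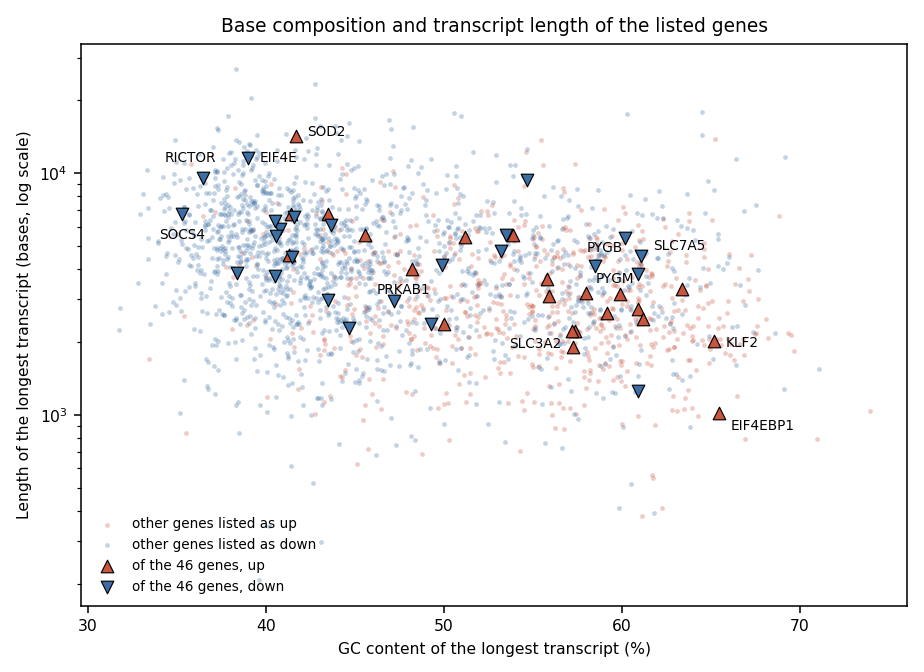
Each point is a gene, with the GC content of its longest transcript in percent on the horizontal axis and the length of that transcript in bases on a log scale on the vertical axis. Outlined triangles are the 46 genes, pointing up or down by direction, and pale points are other listed genes. Up genes lie mostly to the right, at a median of 56.6%, and down genes to the left, at 44.2%.

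In some of the pairs and families the gene listed as up had the higher GC content, as over all genes. EIF4EBP1, listed as up, had 65.5% GC and EIF4E, listed as down, 39.0%. PPP2R5B, up, had 60.9% and PPP2R5C, down, 41.5%. PLK3, up, had 61.2%, and PLK2 and PLK4, down, had 47.2% and 38.4%. In phosphorylase kinase, PHKG1 and PHKG2, up, had 57.2% and 53.9%, and PHKA2 and PHKB, down, had 53.5% and 40.6%. In the others the gene listed as down was the higher. SLC3A2, up, had 57.4% GC and SLC7A5, down, 61.1%. PYGM, up, had 58.0% and PYGB, down, 58.5%, and PPP1R3B, up, had 45.6% and PPP1R3E, down, 53.2%.

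Many of these genes share their place in the genome with another gene. In GENCODE release 29 the span of 35 of the 46 genes (76.1%) overlaps another annotated gene, and the same holds for 68.9% of all listed genes. No source used here says whether reads were counted by strand, so reads of overlapping genes may not be told apart. The overlapping genes had 14 up and 21 down (40.0% up), and the 11 others 8 up and 3 down (72.7% up). Over all listed genes the overlapping ones had 466 up and 1076 down (30.2% up), and the others 262 up and 433 down (37.7% up). Of the pairs, SLC3A2, EIF4EBP1 and PYGM overlap no annotated gene, while SLC7A5 and EIF4E each overlap 1 gene on the same strand and 1 on the opposite strand. The span of PPP1R3E overlaps BCL2L2 and HOMEZ, that of PHKG1 overlaps SUMF2, and that of PYGB overlaps ABHD12, among others. Outside the pairs, SOD2 overlaps 3 genes on the same strand and 1 on the opposite strand. Among them are WTAP and another gene entry also named SOD2, and whether these share its reads was not tested. The 46 genes lie on 16 chromosomes.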

How the data were processed

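Total RNA of 1 ezetimibe-treated and 1 control culture of SNU-449 cells was sequenced. HISAT2 2.0.4 and StringTie 1.3.0 were used, per the submitters' processing notes. No source used here gives the genome build or annotation, and depth is unknown from the table. The authors ran edgeR and a KEGG enrichment, as the file's name says, at a threshold that is not given in it. Per the file headers, each of 327 pathways comes with its changed genes by direction, the number of background genes, an enrichment ratio and the authors' p-value and q-value.

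The genes and role lists were chosen with earlier results of these data known. Of 346 role symbols 343 matched a gene ID, and AGAP2 was given a role afterwards. Any gene of the set may be named, but 1 is counted and otherwise not reported here. Counts by direction were made with exact Clopper-Pearson 95% intervals (counting error only), and no test was run. GC content, length and position are from GENCODE release 29 by gene ID, and promoters from RefSeq. The alternatives were other pathway subsets, GC content, gene overlap and promoter availability. Python 3.11.15, SciPy 1.17.1 and Matplotlib 3.10.9 were used.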

Additional observations from a re-analysis of the deposited data

How the results depend on the processing

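With 1 library per condition and no level per gene, nothing here measures the spread between cultures, and depth cannot be judged. Of 20 alternatives, 5 removed no gene, since none of the 46 is under more than 20 pathways, and say nothing. Of the other 15, 12 gave a share listed as up within the interval of the value reported. The intervals by pathway are wide, so lying inside one says little of stability. With all listed genes of the pathway, the share went from 58.3% (27.7 to 84.8) to 36.1% for mTOR signaling. It went from 54.5% (23.4 to 83.3) to 30.3% for AMPK, from 41.7% to 30.2% for FoxO and from 40% to 32.7% for insulin signaling. The share of 47.8% moved to 28.6% (2 of 7 genes) among genes under 2 or more of the 4 pathways and to 27.8% for genes with GC content below the median. It moved to 72.7% (8 of 11) without genes that overlap another gene, an alternative chosen after seeing the data, as was the restriction to genes with a promoter (44.1%). These subsets hold fewer genes. With nothing taken out, the share was 35.9%. No paired analysis was possible because each condition has 1 library and the table holds no value per library.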

Other observations

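Beyond the pathways above, several of the same 46 genes were also under other KEGG pathways. The Calcium signaling pathway held 4 of them, 2 up and 2 down, and RNA transport 3, 2 up and 1 down. The pathway Regulation of lipolysis in adipocytes held 2, LIPE and PDE3B, both listed as down. The cAMP signaling pathway also held 2 listed as down, which need not be different genes, since a gene can be under several pathways. A gene of the 46 was under a median of 3 KEGG pathways, with a range of 1 to 15, beside a median of 2 and a range of 1 to 90 over all listed genes.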
